A study of Homo sapiens with 9 samples.

Results

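The genes described here encode the eukaryotic translation initiation factors and their named relatives, as read in MOLM13 cells given shRNAs against YTHDC1. They were chosen by name: every gene symbol starting with EIF1 to EIF6, without the eIF2 kinases (EIF2AK genes), the Y-linked EIF1AY, the EIF2C genes and pseudogenes. The rule found 53 of the 25679 gene symbols in the count table, and 52 of these were among the 16746 genes with enough counts to be tested. EIF4E1B was the gene left out of the tests, with 6 or fewer counts in each library. The members include 3 antisense RNAs (EIF1AX-AS1, EIF1B-AS1 and EIF3J-AS1) and the 3 EIF4EBP genes, which encode binding proteins of eIF4E and are not initiation factors.

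Polyadenylated RNA was sequenced from MOLM13 cells, a line of human acute myeloid leukemia with a KMT2A fusion. The 3 groups, of 3 libraries each, were cells transduced with virus expressing YTHDC1 shRNA 1, YTHDC1 shRNA 2 or a control shRNA. All 3 groups were spun with virus and polybrene at 10 ug/ml for 1 h at 32 °C, left for 48 h and then selected with puromycin at 3 ug/ml for 48 h. YTHDC1 is a nuclear reader of N6-methyladenosine on RNA, and the series asks which genes change when it is depleted.

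Translation of most messenger RNAs begins when the cap-binding complex eIF4F (eIF4E, eIF4G and the helicase eIF4A, helped by eIF4B and eIF4H) recruits the small ribosomal subunit. That subunit carries eIF1, eIF1A, eIF3, eIF5 and the ternary complex of eIF2, GTP and initiator tRNA, and scans to a start codon. eIF2 is recycled by its exchange factor eIF2B, a step that is blocked when stress kinases phosphorylate the eIF2 alpha subunit, while eIF4E is held back by the 4E-BP proteins until mTORC1 phosphorylates them. Several of these genes are known targets of MYC, which binds E-boxes with its partner MAX.

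Library totals ran from 26455645 to 67558551 counts, and 3 counts, the limit that a count of 0 allows, were worth 0.0444 to 0.113 CPM (counts of a gene over the scaled total of its library, in the usual unit) in the deepest and the shallowest library. YTHDC1 itself had 117, 103 and 134 CPM in the shRNA 1 libraries, 0, 61.4 and 52.5 CPM in the shRNA 2 libraries, and 134, 139 and 122 CPM in the control libraries. The shRNA 1 libraries overlapped the control ones in YTHDC1 and the shRNA 2 libraries were all below them, so the targeted gene did not bear out the label of shRNA 1. YTHDC1 was called in neither comparison (edgeR BH-adjusted p = 0.938 with shRNA 1 and 0.326 with shRNA 2). That fit held the 0 of library 1 of shRNA 2, and its log2 fold changes were -0.16 ± 1.36 SE and -1.79 ± 1.41. The other shRNA 2 libraries averaged 56.9 CPM, beside 131.6 CPM in control, so the missing call does not show an unchanged level with shRNA 2. Here "with shRNA 1" means in the libraries labelled with it. Likewise "knockdown" names the libraries labelled with either YTHDC1 shRNA, whatever their YTHDC1 level. Library 1 of shRNA 2 stood apart from the others: of 10462 genes at 5 CPM or more in both other shRNA 2 libraries, 486 were there at under 0.5 of either, against 0 to 73 in the other 8 libraries. YTHDC1 was among those 486, and EIF3C, EIF3CL and EIF5AL1 were the members among them. All 7 myeloid markers looked up were present. In every library, 3 of 4 T and NK cell, 2 of 3 B cell and 2 of 2 erythroid markers stayed under 1 CPM. So did 4 of 5 genes listed as epithelial and stromal. Several of the markers that were present changed in the libraries labelled with YTHDC1 shRNAs. PTPRC and SPI1 rose and FLT3 and MEIS1 fell with both shRNAs, while MPO rose 2.94-fold with shRNA 1 (edgeR BH-adjusted p = 0.00272) and fell 2.41-fold with shRNA 2 (edgeR BH-adjusted p = 0.00474). The summed myeloid markers ran from 1426 to 1602 CPM with shRNA 1, from 1185 to 1236 CPM with shRNA 2 and from 1252 to 1292 CPM in control. PECAM1 was the gene listed as epithelial and stromal that was present, but it is not particular to those cells. It averaged 134 ± 32.7 CPM with shRNA 1, 177 ± 10.7 CPM with shRNA 2 and 22.9 ± 3.58 CPM in control (SD, n = 3 each), a rise of 5.87-fold with shRNA 1 and 7.75-fold with shRNA 2. NKG7 rose 1.93-fold with shRNA 2 (edgeR BH-adjusted p = 0.0059). The part of these changes in the results on the initiation factors was not tested. In bulk RNA of this kind, fewer cells of a type and less RNA per cell cannot be told apart. Nothing in the labels ties the libraries of a group to separate cultures, so the p-values reflect the spread among the libraries alone, and that spread may be technical.

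Promoter windows were read for 44 of the 53 members, from 250 bases before to 50 bases after the start of the gene in RefSeq (GRCh38.p14). The E-box letters CACGTG, which read the same on both strands, were found in 12 of these 44 promoters (27.3%), against 7.4% of the 27305 promoters of all genes and 9.7% of the 11269 promoters of genes tested. The promoters shown here are the 7 with these letters whose genes changed with shRNA 1. Of the 11 genes that fell with shRNA 1 and had a promoter, 6 held them (54.5%). They were in 1 of the 6 that rose (16.7%) and in 5 of the 26 that were not called (19.2%). The shares among all genes that fell, rose or were not called were not computed. A link between the letters and the changes was not tested, and the promoters were picked by these same calls. For shRNA 2 the shares lay closer together: the letters were in 6 of the 19 promoters of genes that fell (31.6%), in 1 of the 4 that rose (25%) and in 5 of the 20 that were not called (25%). The capitals mark the E-box, each sequence is written 5′ to 3′ along the strand of the gene, and EIF4G1 held the letters at 2 places.
EIF4B (chr12:53006394-53006455, plus strand): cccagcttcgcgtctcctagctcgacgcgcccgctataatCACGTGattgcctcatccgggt
EIF4H (chr7:74174117-74174202, plus strand): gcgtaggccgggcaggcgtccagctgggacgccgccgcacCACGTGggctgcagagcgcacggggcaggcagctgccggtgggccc
EIF4G1, first window (chr3:184314422-184314507, plus strand): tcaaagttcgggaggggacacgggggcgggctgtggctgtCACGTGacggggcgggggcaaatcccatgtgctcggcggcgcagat
EIF4G1, second window (chr3:184314499-184314584, plus strand): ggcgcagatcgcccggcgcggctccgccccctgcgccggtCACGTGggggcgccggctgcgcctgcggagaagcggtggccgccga
EIF4A3 (chr17:80147204-80147289, minus strand): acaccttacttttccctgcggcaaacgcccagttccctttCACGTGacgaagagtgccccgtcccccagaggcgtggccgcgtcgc
EIF4EBP3 (chr5:140547609-140547661, plus strand): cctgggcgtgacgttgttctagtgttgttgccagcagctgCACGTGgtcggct
EIF2B3 (chr1:44986729-44986814, minus strand): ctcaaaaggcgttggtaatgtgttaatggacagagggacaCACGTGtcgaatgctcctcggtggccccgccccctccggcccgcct
EIF1B (chr3:40309613-40309698, plus strand): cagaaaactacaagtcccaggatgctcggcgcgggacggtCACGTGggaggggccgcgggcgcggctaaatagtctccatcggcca
EIF1B rose with shRNA 1 and the other 6 genes fell. A match is a description of these letters and not a bound site. The letters TGATGNAA, searched on both strands as the core read by the stress factor ATF4 with its partners, were in 0 of the 44 member promoters, in 2% of those of genes tested and in 3.7% of all.

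With shRNA 1, 13 members fell and 6 rose against control at a Benjamini-Hochberg (BH) adjusted p under 0.05 in edgeR, which is 25% and 11.5% of the 52 tested. Over all genes tested the same fit called 19% lower and 20.4% higher, so the share of members that fell was near the background and the share that rose was below it. With shRNA 2, 22 members fell (42.3%) and 4 rose (7.7%), against 27.4% lower and 27.5% higher over all genes. The median log2 fold change of the members was -0.19 with shRNA 1 and -0.40 with shRNA 2, beside 0.02 and -0.02 over all genes. Most changes were small. A fall of more than 2-fold was seen for 1 member with shRNA 1 (EIF4EBP1) and for 3 with shRNA 2 (EIF4EBP1, EIF4B and EIF3D), and 0 members rose by that much in either comparison, in edgeR's quasi-likelihood fit. Over all genes, 6.2% fell and 7.91% rose by more than 2-fold with shRNA 1, and 10.9% fell and 14.8% rose with shRNA 2. All 3 libraries of shRNA 1 lay below all 3 control libraries for 16 members (30.8%) and above them for 8, beside 24.2% and 25.7% of all genes. For shRNA 2 the numbers were 34 members below (65.4%) and 9 above, beside 35% and 34% of all genes. The mean of both shRNAs gave 22 members lower and 6 higher, against 26.2% and 26.3% of all genes. Both comparisons use the same 3 control libraries. Upper-quartile scaling moved the median of all genes by 0.13 with shRNA 2, and the members' split became 9 higher and 22 lower under it, in place of 4 higher and 22 lower. The background moved as well: over all genes, that scaling called more genes higher and fewer lower with shRNA 2. The added higher members are therefore not read apart from this shift.

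**Figure D1:**
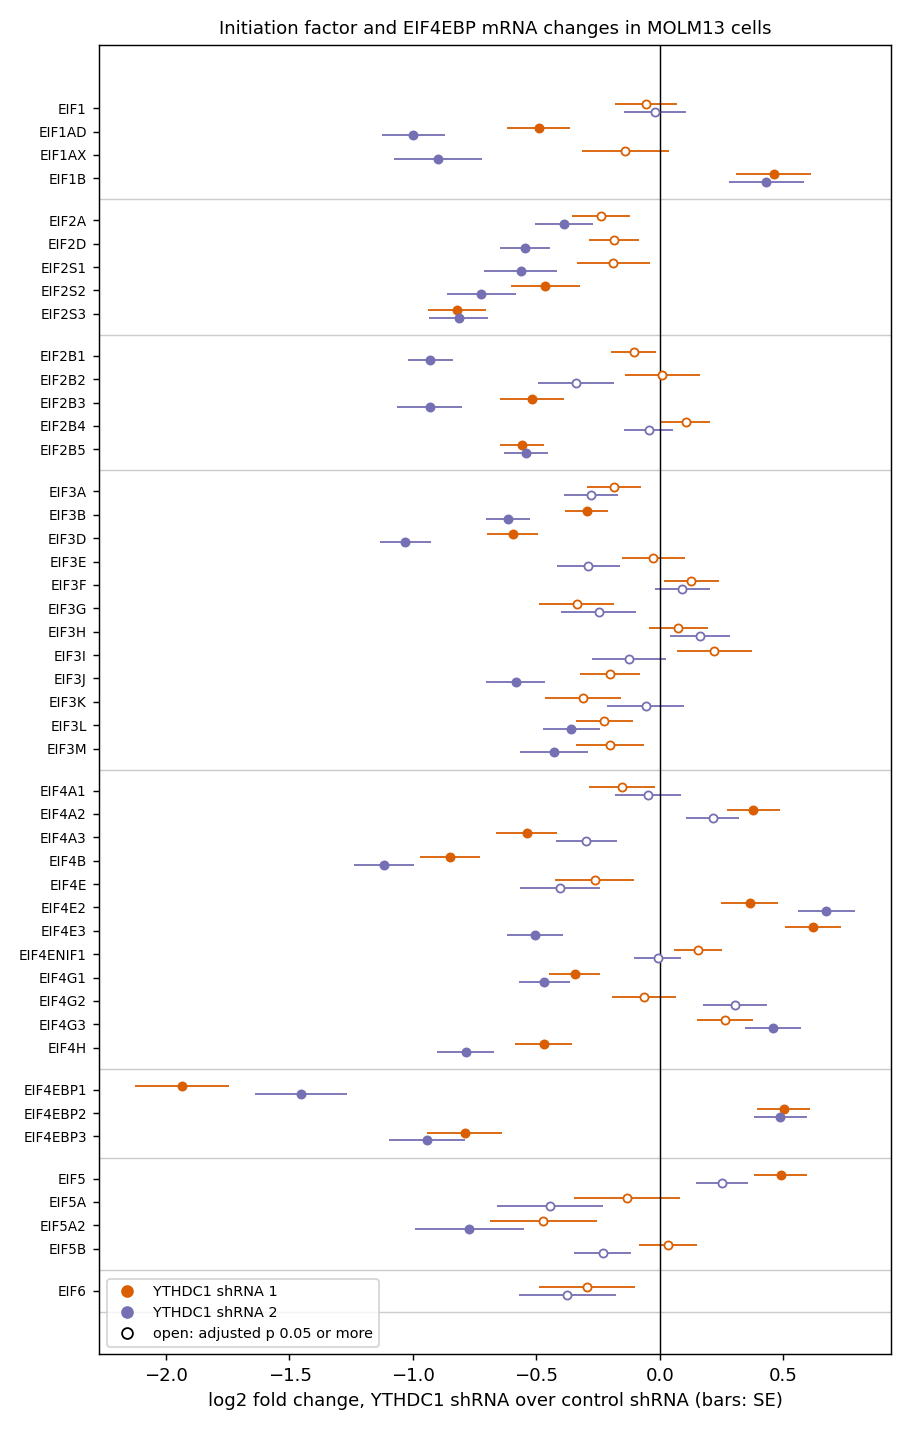
Log2 fold change against control of the tested members without EIF3C, EIF3CL, EIF5AL1 and the antisense RNAs, by factor group, for shRNA 1 and shRNA 2; bars are standard errors from edgeR and filled points passed an adjusted p of 0.05. Most points lie below 0, EIF4EBP1 lies farthest below with shRNA 1 at -1.93, and EIF4E3 lies on opposite sides of 0 with the 2 shRNAs.

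The 3 4E-BP genes changed with both shRNAs, 2 of them lower (66.7%) and 1 higher (33.3%). Over all genes, 19% were lower and 20.4% higher with shRNA 1, and 27.4% lower and 27.5% higher with shRNA 2. EIF4EBP1 encodes the best studied of these repressors, which in their unphosphorylated form keep eIF4E from binding eIF4G. EIF4EBP1 had 42.3, 53.5 and 28.9 CPM in the shRNA 1 libraries, 62.8, 56.8 and 54.3 CPM in the shRNA 2 libraries, and 166, 167 and 144 CPM in the control libraries. Every knockdown library was below every control library. It fell 3.82-fold with shRNA 1 (log2 change -1.93 ± 0.19 SE, edgeR BH-adjusted p = 3.64e-05) and 2.74-fold with shRNA 2 (-1.45 ± 0.19, edgeR BH-adjusted p = 8.85e-05). EIF4EBP2, which encodes a paralog with the same action, had 226, 186 and 208 CPM in the shRNA 1 libraries, 204, 196 and 214 CPM in the shRNA 2 libraries, and 160, 137 and 140 CPM in the control libraries. Its knockdown libraries were all above the control ones. It rose 1.42-fold with shRNA 1 (log2 change 0.50 ± 0.11 SE, edgeR BH-adjusted p = 0.00368) and 1.4-fold with shRNA 2 (0.49 ± 0.11, edgeR BH-adjusted p = 0.00263). EIF4EBP3, the third repressor, was low, with 4.37, 4.24 and 3.35 CPM with shRNA 1, 3.48, 3.53 and 3.74 CPM with shRNA 2, and 6.82, 6.73 and 7.12 CPM in control. Again no knockdown library reached a control one. It fell 1.73-fold with shRNA 1 (log2 change -0.79 ± 0.15 SE, edgeR BH-adjusted p = 0.00199) and 1.92-fold with shRNA 2 (-0.94 ± 0.15, edgeR BH-adjusted p = 0.000369). EIF4EBP3 shares its exons with a readthrough transcript from ANKHD1, whose own row averaged 172 ± 18.6 CPM with shRNA 1, 158 ± 2.67 CPM with shRNA 2 and 140 ± 7.34 CPM in control (SD, n = 3 each), so its count is uncertain. That readthrough row lay above control in every knockdown library, opposite to EIF4EBP3, and its part in the result was not tested.

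eIF4E, the cap-binding protein that the 4E-BPs hold, did not pass the test. EIF4E had 111, 81.3 and 88.1 CPM with shRNA 1, 67.2, 99.0 and 87.8 CPM with shRNA 2, and 125, 113 and 98.6 CPM in control, and its groups overlapped. Its log2 fold change was -0.26 ± 0.16 SE with shRNA 1 (edgeR BH-adjusted p = 0.217) and -0.40 ± 0.16 with shRNA 2 (edgeR BH-adjusted p = 0.0519). The shRNA 2 value of EIF4E passed under 7 of 19 alternative settings, DESeq2 among them. Its paralog EIF4E2, known as 4EHP, binds caps but represses the messages it binds. It had 69.6, 54.1 and 54.4 CPM with shRNA 1, 74.2, 75.2 and 71.5 CPM with shRNA 2, and 49.0, 46.6 and 42.8 CPM in control, so all knockdown libraries were above all control ones. EIF4E2 rose 1.6-fold with shRNA 2 (log2 change 0.67 ± 0.11 SE, edgeR BH-adjusted p = 0.000483) and by 0.36 ± 0.11 on the log2 scale with shRNA 1 (edgeR BH-adjusted p = 0.0266). EIF4E3, a cap-binding paralog with an atypical pocket, is the 1 member that changed in opposite directions with the 2 shRNAs. Its levels were 31.8, 25.9 and 29.5 CPM with shRNA 1, 13.0, 12.8 and 14.1 CPM with shRNA 2, and 19.8, 17.3 and 19.5 CPM in control. The shRNA 1 libraries were all above control, the shRNA 2 libraries were all below it, and no groups overlapped. It rose 1.54-fold with shRNA 1 (log2 change 0.62 ± 0.11 SE, edgeR BH-adjusted p = 0.00139) and fell 1.42-fold with shRNA 2 (-0.51 ± 0.11, edgeR BH-adjusted p = 0.00303). The difference between shRNA 2 and shRNA 1 was -1.13 ± 0.11 on the log2 scale (edgeR BH-adjusted p = 4.18e-05). EIF4ENIF1, which carries eIF4E into the nucleus, had log2 fold changes of 0.16 with shRNA 1 and -0.01 with shRNA 2 and was called in neither.

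**Figure D2:**
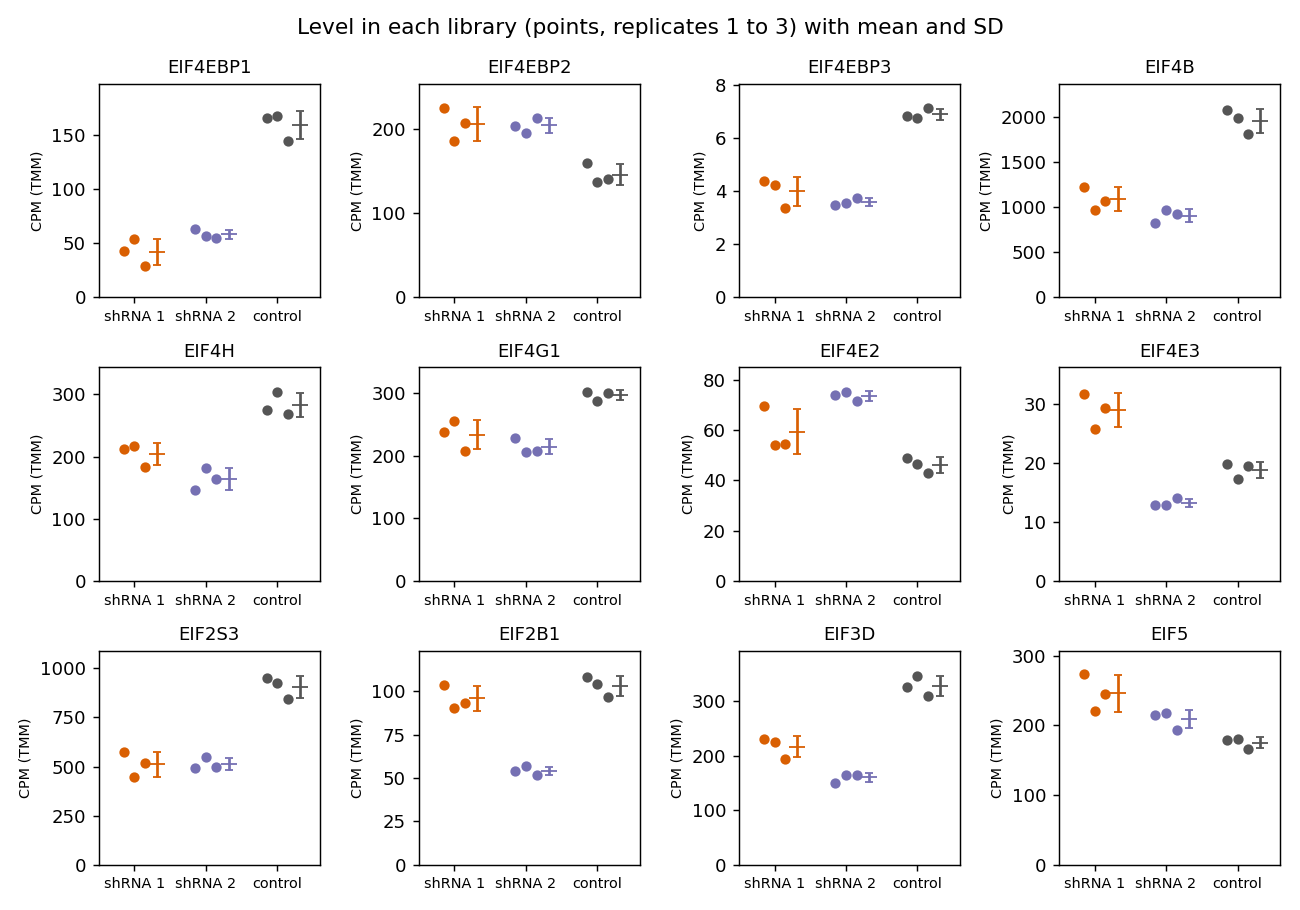
Level in CPM in each library of selected members, with points for libraries and bars for group means ± SD (n = 3), in the order shRNA 1, shRNA 2, control. EIF4EBP1 and EIF4B lie below control in all 6 knockdown libraries, EIF4EBP2 lies above it in all 6, and EIF4E3 lies above it with shRNA 1 and below it with shRNA 2.

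Among the scaffolds, EIF4G1, the main eIF4G, fell and its paralogs did not. EIF4G1 had 238, 255 and 208 CPM with shRNA 1, 229, 207 and 208 CPM with shRNA 2, and 302, 288 and 301 CPM in control, with every knockdown library below every control one. It fell by 0.34 ± 0.10 on the log2 scale with shRNA 1 (edgeR BH-adjusted p = 0.022) and by 0.47 ± 0.10 with shRNA 2 (edgeR BH-adjusted p = 0.00275). EIF4G3, a second full-length scaffold, had 210, 174 and 232 CPM with shRNA 1, 232, 226 and 247 CPM with shRNA 2, and 173, 173 and 166 CPM in control. All its shRNA 2 libraries were above control, and library 2 of shRNA 1 lay close to it. It rose with shRNA 2 (log2 fold change 0.46 ± 0.11 SE, edgeR BH-adjusted p = 0.0051), while with shRNA 1 the value was 0.26 ± 0.11 (edgeR BH-adjusted p = 0.0852). EIF4G2, also called DAP5, lacks the eIF4E-binding site and serves cap-independent initiation. Its levels were 766, 661 and 607 CPM with shRNA 1, 867, 895 and 863 CPM with shRNA 2, and 796, 729 and 602 CPM in control, so that shRNA 2 lay above both other groups, which overlapped. Its log2 fold change of 0.30 ± 0.13 SE with shRNA 2 did not pass (edgeR BH-adjusted p = 0.0672), but passed in DESeq2 (DESeq2 adjusted p = 0.044).

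Of the helicases, the second copy rose with shRNA 1 and the main one was not called. EIF4A1, the main helicase, had 1131, 1007 and 804 CPM with shRNA 1, 1098, 1083 and 988 CPM with shRNA 2, and 1166, 1106 and 999 CPM in control, with overlapping groups and log2 fold changes of -0.15 ± 0.13 (edgeR BH-adjusted p = 0.398) and -0.05 ± 0.13 (edgeR BH-adjusted p = 0.794). Reads of EIF4A1 may be shared with the SENP3 readthrough transcript. EIF4A2, its close paralog, had 522, 419 and 447 CPM with shRNA 1, 412, 427 and 399.7 CPM with shRNA 2, and 347, 366 and 354 CPM in control, so that no knockdown library overlapped control. EIF4A2 rose with shRNA 1 (log2 fold change 0.38 ± 0.11 SE, edgeR BH-adjusted p = 0.0164), and with shRNA 2 it stood at 0.21 ± 0.11 (edgeR BH-adjusted p = 0.113). EIF4A3 is named with these helicases but works in the exon junction complex, not in initiation. It had 62.1, 49.9 and 44.9 CPM with shRNA 1, 64.8, 62.8 and 57.9 CPM with shRNA 2, and 80.6, 76.8 and 70.5 CPM in control, all knockdown libraries being below control. It fell with shRNA 1 (log2 fold change -0.54 ± 0.12 SE, edgeR BH-adjusted p = 0.00535), and with shRNA 2 the value was -0.30 ± 0.12 (edgeR BH-adjusted p = 0.0611). The shRNA 2 value passed under 7 of 19 alternative settings.

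Both RNA-binding helpers of the helicase fell with both shRNAs. EIF4B had 1226, 965 and 1067 CPM with shRNA 1, 822, 962 and 921 CPM with shRNA 2, and 2068, 1986 and 1809 CPM in control, far apart from the knockdown libraries. It fell 1.8-fold with shRNA 1 (log2 change -0.85 ± 0.12 SE, edgeR BH-adjusted p = 0.000306) and 2.17-fold with shRNA 2 (-1.12 ± 0.12, edgeR BH-adjusted p = 1.95e-05). EIF4H, a related stimulator, had 213, 217 and 183 CPM with shRNA 1, 146, 182 and 164 CPM with shRNA 2, and 275, 304 and 269 CPM in control. Control was again above every knockdown library. EIF4H fell by 0.47 ± 0.12 on the log2 scale with shRNA 1 (edgeR BH-adjusted p = 0.00784) and 1.72-fold with shRNA 2 (edgeR BH-adjusted p = 0.000174). In all, 4 of the 12 tested EIF4 genes fell (33.3%) and 3 rose (25%) with shRNA 1 (median log2 fold change -0.11), beside 19% and 20.4% of all genes. With shRNA 2, 4 fell (33.3%) and 2 rose (16.7%) (median -0.17), beside 27.4% and 27.5% of all genes. Leaving out 1 library ended the shRNA 1 calls of EIF4G1 (control 1, control 3 or shRNA 1 library 3), EIF4A2 (control 2 or 3) and EIF4E2 (control 2, control 3 or shRNA 1 library 1).

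Ratios of paralogs within a library set these members against each other without regard to scaling, and are given over their control mean, with no test. EIF4EBP2 over EIF4EBP1 stood at 5.80, 3.77 and 7.81 with shRNA 1, at 3.52, 3.75 and 4.28 with shRNA 2, and at 1.05, 0.888 and 1.06 in control. That was the widest shift of the 8 ratios computed, and no knockdown library came near control. EIF4E2 over EIF4E stood at 1.52, 1.61 and 1.49 with shRNA 1, 2.67, 1.84 and 1.97 with shRNA 2, and 0.951, 1.00 and 1.05 in control, again with no overlap. EIF4G3 over EIF4G1 was 1.53, 1.18 and 1.93 with shRNA 1, 1.76, 1.90 and 2.06 with shRNA 2, and 0.995, 1.04 and 0.961 in control, and EIF4A2 over EIF4A1 likewise lay above control in all 6 knockdown libraries. EIF4G2 over EIF4G1 overlapped control with shRNA 1 and lay above it with shRNA 2, where it was 1.58, 1.81 and 1.73. EIF4E3 over EIF4E was 1.69, 1.87 and 1.97 with shRNA 1, above control, and overlapped control with shRNA 2.

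**Figure D3:**
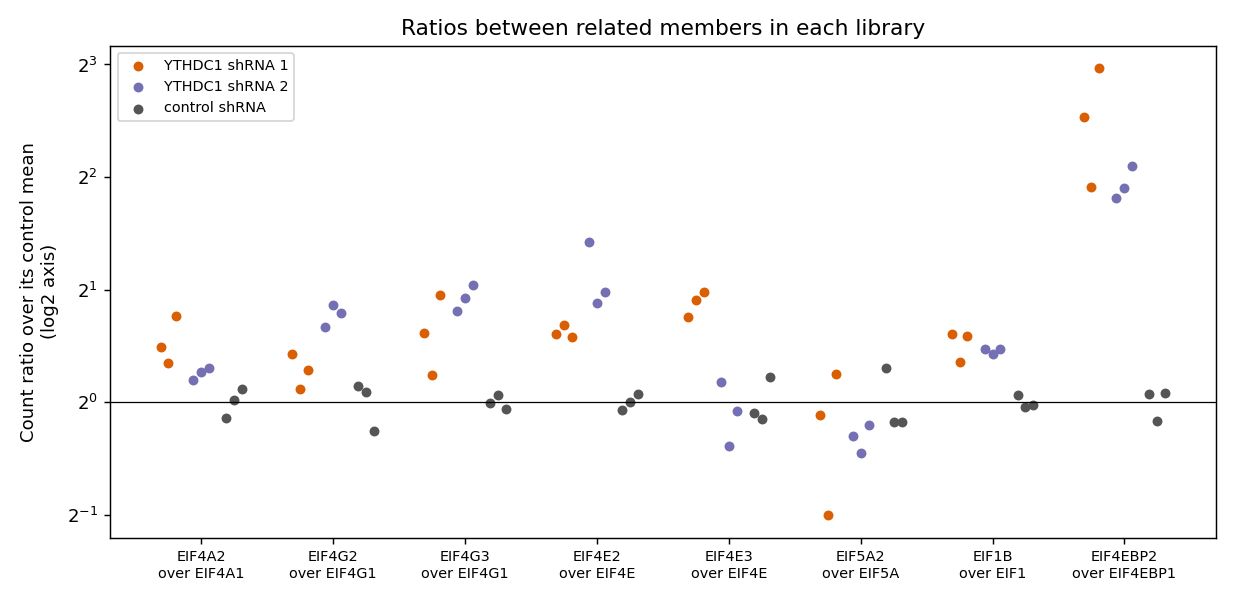
Ratio of each paralog pair in each library, divided by the control mean, on a log2 axis, in the order shRNA 1, shRNA 2, control. EIF4EBP2 over EIF4EBP1 reaches 3.52 to 7.81 in the knockdown libraries, and EIF5A2 over EIF5A is the pair whose means, 0.869 and 0.804, lie below control with both shRNAs.

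The genes of eIF2, which brings the initiator tRNA, were lower with shRNA 2, while with shRNA 1 the gamma and beta subunits were. EIF2S3, the gamma subunit that binds GTP and the tRNA, had 573, 446 and 518 CPM with shRNA 1, 495, 549 and 500.3 CPM with shRNA 2, and 949, 926 and 841 CPM in control. Control stood clear of every knockdown library, and shRNA 1 and shRNA 2 overlapped each other. It fell 1.77-fold with shRNA 1 (log2 change -0.82 ± 0.12 SE, edgeR BH-adjusted p = 0.000305) and 1.76-fold with shRNA 2 (edgeR BH-adjusted p = 0.000155). EIF2S2, the beta subunit, had 297, 221 and 245 CPM with shRNA 1, 194, 227 and 218 CPM with shRNA 2, and 390.2, 366 and 296 CPM in control, with library 1 of shRNA 1 reaching the lowest control library. It fell by 0.72 ± 0.14 on the log2 scale with shRNA 2 (edgeR BH-adjusted p = 0.00125) and by 0.46 ± 0.14 with shRNA 1 (edgeR BH-adjusted p = 0.0233). EIF2S1, the alpha subunit that stress kinases phosphorylate, had 60.5, 46.7 and 43.0 CPM with shRNA 1, 36.4, 40.1 and 39.2 CPM with shRNA 2, and 66.9, 55.6 and 48.6 CPM in control, where shRNA 1 overlapped control and shRNA 2 lay below it. EIF2S1 fell with shRNA 2 (log2 fold change -0.56 ± 0.15 SE, edgeR BH-adjusted p = 0.00778), and with shRNA 1 the value was -0.19 ± 0.15 (edgeR BH-adjusted p = 0.347). EIF2D, which can place tRNA on the ribosome without eIF2, averaged 79.4 ± 9.2 CPM with shRNA 1, 61.8 ± 1.51 CPM with shRNA 2 and 90.3 ± 5.25 CPM in control (SD, n = 3 each). EIF2D fell with shRNA 2 (log2 fold change -0.55 ± 0.10 SE, edgeR BH-adjusted p = 0.000886). EIF2A, another factor of alternative initiation, fell by 0.39 ± 0.12 on the log2 scale with shRNA 2 (edgeR BH-adjusted p = 0.0161). The EIF2 group, formed by name, held the eIF2 subunits together with EIF2A and EIF2D, which are not subunits of eIF2. In this group 5 of 5 genes were called lower with shRNA 2 (median log2 fold change -0.56) and 2 of 5 (40%) with shRNA 1 (median -0.24). Over all genes, 27.4% were called lower with shRNA 2 and 19% with shRNA 1. The shRNA 1 call of EIF2S2 was lost without control 1, control 2, shRNA 1 library 2 or shRNA 1 library 3, and the shRNA 2 call of EIF2A without control 1 (edgeR BH-adjusted p = 0.0637, the highest over its alternatives).

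Within eIF2B the 5 subunits did not move as one. EIF2B5, the catalytic epsilon subunit, had 43.3, 41.6 and 44.1 CPM with shRNA 1, 44.7, 45.5 and 40.05 CPM with shRNA 2, and 64.1, 62.9 and 62.8 CPM in control. Both knockdown groups lay below control, overlapped each other and were tight. EIF2B5 fell by 0.56 ± 0.09 on the log2 scale with shRNA 1 (edgeR BH-adjusted p = 0.000639) and by 0.54 ± 0.09 with shRNA 2 (edgeR BH-adjusted p = 0.000394). EIF2B3, the gamma subunit, which pairs with epsilon, had 27.1, 24.5 and 20.9 CPM with shRNA 1, 18.2, 20.1 and 16.2 CPM with shRNA 2, and 36.9, 36.1 and 30.9 CPM in control, and all knockdown libraries were below control. EIF2B3 fell by 0.52 ± 0.13 on the log2 scale with shRNA 1 (edgeR BH-adjusted p = 0.00865) and by 0.93 ± 0.13 with shRNA 2 (edgeR BH-adjusted p = 0.000125). EIF2B1, the regulatory alpha subunit, had 104, 90.4 and 93.3 CPM with shRNA 1, 54.0, 56.7 and 51.8 CPM with shRNA 2, and 108, 104 and 96.8 CPM in control. The shRNA 2 libraries were far below both other groups, which overlapped. It fell 1.9-fold with shRNA 2 (log2 change -0.93 ± 0.09 SE, edgeR BH-adjusted p = 8.86e-06), against a log2 fold change of -0.11 ± 0.09 with shRNA 1 (edgeR BH-adjusted p = 0.384). EIF2B2 and EIF2B4, the beta and delta subunits, were not called, with log2 fold changes of 0.01 and 0.10 with shRNA 1 and -0.34 and -0.04 with shRNA 2.

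eIF3 is the largest factor, a scaffold of many subunits on the small ribosomal subunit. Of its 14 tested genes, 2 fell with shRNA 1 (14.3%) and 5 with shRNA 2 (35.7%), beside the 19% and 27.4% of all genes that fell. Without EIF3CL, which repeats the reads of EIF3C, the shares of 13 genes were 15.4% and 38.5%. Neither EIF3C nor EIF3CL is among those called, but both passed in both comparisons when library 1 of shRNA 2 was left out. EIF3D, a subunit that can itself bind caps, had 229.8, 225 and 194 CPM with shRNA 1, 150.4, 165 and 165 CPM with shRNA 2, and 326, 346 and 309.6 CPM in control. Its 3 groups did not overlap, control being highest and shRNA 2 lowest. EIF3D fell 1.51-fold with shRNA 1 (log2 change -0.60 ± 0.10 SE, edgeR BH-adjusted p = 0.000999) and 2.04-fold with shRNA 2 (-1.03 ± 0.10, edgeR BH-adjusted p = 1.04e-05). EIF3B, a core subunit near the mRNA entry channel, had 172, 166 and 153 CPM with shRNA 1, 136, 132 and 126 CPM with shRNA 2, and 205, 199 and 199 CPM in control, in the same order and with no overlap. It fell by 0.30 ± 0.09 on the log2 scale with shRNA 1 (edgeR BH-adjusted p = 0.0213) and by 0.61 ± 0.09 with shRNA 2 (edgeR BH-adjusted p = 0.000156). EIF3J, a loosely held subunit, had 108, 86.5 and 88.4 CPM with shRNA 1, 68.9, 76.8 and 71.5 CPM with shRNA 2, and 123, 107 and 95.9 CPM in control, and its shRNA 2 libraries were below both other groups. EIF3J fell by 0.58 ± 0.12 on the log2 scale with shRNA 2 (edgeR BH-adjusted p = 0.00175), with a log2 fold change of -0.20 under shRNA 1 (edgeR BH-adjusted p = 0.208). EIF3L and EIF3M, further subunits of the complex, also fell with shRNA 2, by 0.36 ± 0.12 (edgeR BH-adjusted p = 0.0218) and by 0.43 ± 0.14 (edgeR BH-adjusted p = 0.0209) on the log2 scale. EIF3A, the largest core subunit, had 751, 655 and 777 CPM with shRNA 1, 654, 705 and 689.9 CPM with shRNA 2, and 859.5, 868 and 753 CPM in control. Its shRNA 2 libraries were below control and its shRNA 1 libraries overlapped it, with a log2 fold change of -0.28 ± 0.11 SE with shRNA 2 that missed the threshold (edgeR BH-adjusted p = 0.0513). That value passed under 8 of 19 alternative settings, DESeq2 among them. The subunit genes EIF3E, EIF3F, EIF3G, EIF3H, EIF3I and EIF3K were not called in either comparison, with log2 fold changes between -0.34 and 0.22. Calls near the threshold depended on single libraries: that of EIF3B with shRNA 1 was lost without control 1 or 2, that of EIF3L with shRNA 2 without control 1, control 2 or any of the shRNA 2 libraries, and that of EIF3M with shRNA 2 without control 1, control 2, shRNA 2 library 1 or shRNA 2 library 3.

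EIF3C, the subunit that touches eIF1 and eIF5, is read from 2 near-identical gene copies, EIF3C and EIF3CL, whose rows had nearly equal counts, so that reads of the 2 copies cannot be told apart. Its levels were 639, 614 and 500.1 CPM with shRNA 1, 3.29, 452 and 443 CPM with shRNA 2, and 862, 841 and 849 CPM in control. Every knockdown library was below control, and library 1 of shRNA 2 was lower than its companions by a wide margin, at 104 counts against 23635 and 21687. With that library in the fit, the log2 fold change was -0.54 ± 1.28 SE with shRNA 1 (edgeR BH-adjusted p = 0.775) and -1.51 ± 1.31 with shRNA 2 (edgeR BH-adjusted p = 0.372). Without it, EIF3C fell by 0.56 on the log2 scale with shRNA 1 (edgeR BH-adjusted p = 0.00344) and by 0.95 with shRNA 2 (edgeR BH-adjusted p = 0.000146). The same library held 7 counts of EIF5AL1, a gene nearly identical to EIF5A, at 0.221 CPM against 14.6 and 17.5 CPM in the other shRNA 2 libraries. Outside EIF3C, EIF3CL, EIF5AL1 and EIF4E1B, the members of library 1 of shRNA 2 stood at 0.719 (EIF4E) to 1.214 (EIF6) of the mean of the other shRNA 2 libraries. Leaving the library out gave 6 members higher and 15 lower with shRNA 1, and 3 higher and 22 lower with shRNA 2. The lower members gained with shRNA 1 were EIF3C and EIF3CL, which repeat the same reads. With shRNA 2 these copies were also gained, while EIF3L and EIF3M were lost. Over all genes, fewer were called higher and more lower in both comparisons without that library.

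**Figure D4:**
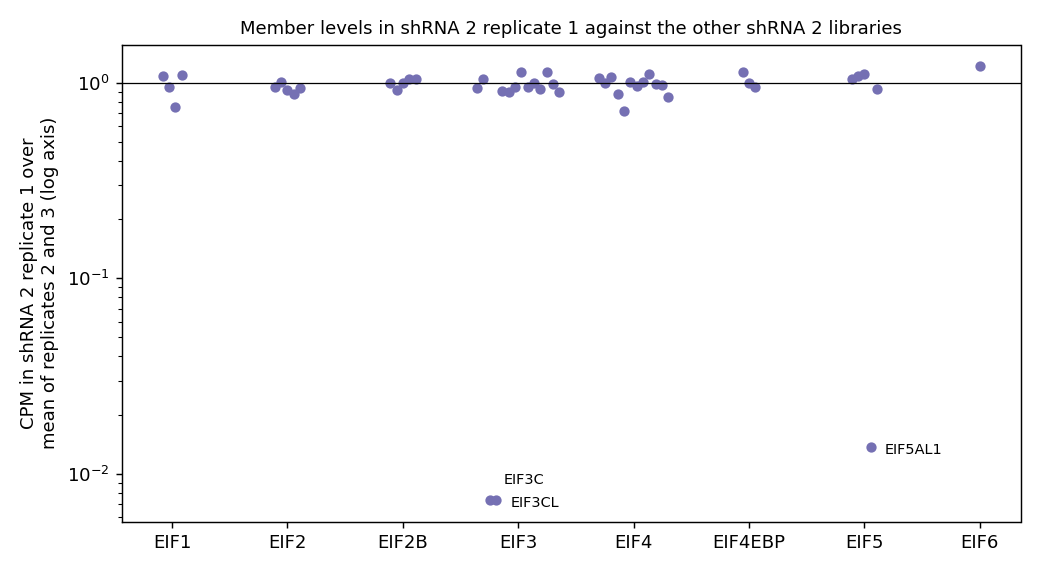
Level of each tested member other than the antisense RNAs in library 1 of shRNA 2, divided by the mean of the other shRNA 2 libraries, on a log axis, by factor group. EIF3C, EIF3CL and EIF5AL1 fall far below the rest, which run from 0.719 for EIF4E to 1.214 for EIF6.

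Of the 4 EIF1 genes, 1 fell and 1 rose with shRNA 1 (25% each), and 2 fell (50%) and 1 rose (25%) with shRNA 2, beside 19% lower and 20.4% higher with shRNA 1 and 27.4% lower and 27.5% higher with shRNA 2 over all genes. EIF1, the gatekeeper of start codon fidelity, had 160.0, 143 and 114 CPM with shRNA 1, 150.4, 139.7 and 138 CPM with shRNA 2, and 158, 137 and 139 CPM in control, with overlapping groups and log2 fold changes of -0.06 ± 0.13 and -0.02 ± 0.13. EIF1B, its paralog, averaged 15.7 ± 3.04 CPM with shRNA 1, 15.4 ± 0.86 CPM with shRNA 2 and 11.4 ± 1.4 CPM in control (SD, n = 3 each). EIF1B rose by 0.46 ± 0.15 on the log2 scale with shRNA 1 (edgeR BH-adjusted p = 0.0329) and by 0.43 ± 0.15 with shRNA 2 (edgeR BH-adjusted p = 0.0323). EIF1AX, the X-linked eIF1A gene that keeps the scanning ribosome open, had 144, 118 and 101 CPM with shRNA 1, 58.4, 84.7 and 71.4 CPM with shRNA 2, and 158, 131 and 110.5 CPM in control. Its shRNA 2 libraries were below both other groups, which overlapped. EIF1AX fell 1.86-fold with shRNA 2 (log2 change -0.90 ± 0.18 SE, edgeR BH-adjusted p = 0.00149), while with shRNA 1 the value was -0.14 ± 0.18 (edgeR BH-adjusted p = 0.569). EIF1AD, a nuclear protein with an eIF1A-like domain, had 13.5, 12.2 and 11.8 CPM with shRNA 1, 8.44, 9.78 and 8.05 CPM with shRNA 2, and 17.1, 19.2 and 16.1 CPM in control, in 3 groups that did not overlap. It fell with both, by 0.49 ± 0.13 on the log2 scale with shRNA 1 (edgeR BH-adjusted p = 0.0104) and by 1.00 ± 0.13 with shRNA 2 (edgeR BH-adjusted p = 6.61e-05). The EIF1B calls were lost without control 2 or control 3 in both comparisons, without shRNA 1 library 1, shRNA 2 library 2 or shRNA 2 library 3 with shRNA 1, and without any of the shRNA 2 libraries with shRNA 2, and the shRNA 1 call of EIF1AD was lost without control 2.

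Of the 5 EIF5 genes, 1 rose with shRNA 1 (20%) and 1 fell with shRNA 2 (20%), beside 20.4% and 27.4% of all genes. EIF5, the GTPase activator of eIF2, was the one that rose. It had 273, 220.4 and 245 CPM with shRNA 1, 216, 217 and 194 CPM with shRNA 2, and 179, 181 and 166 CPM in control, with all knockdown libraries above control. EIF5 rose 1.4-fold with shRNA 1 (log2 change 0.49 ± 0.11 SE, edgeR BH-adjusted p = 0.00402), and with shRNA 2 the value was 0.25 ± 0.11 (edgeR BH-adjusted p = 0.064). The shRNA 2 value passed under 5 of 19 alternative settings, DESeq2 among them (DESeq2 adjusted p = 0.0358). EIF5B, which joins the ribosomal subunits, was called in neither comparison, at log2 fold changes of 0.03 with shRNA 1 (edgeR BH-adjusted p = 0.845) and -0.23 with shRNA 2 (edgeR BH-adjusted p = 0.117). EIF5A, the hypusinated factor that helps elongation through difficult peptide bonds, spread widely with shRNA 1, at 210.2, 252 and 122 CPM, beside 166, 163 and 142 CPM with shRNA 2 and 221, 218 and 201 CPM in control. Its shRNA 1 libraries lay on both sides of control and its shRNA 2 libraries below it, with log2 fold changes of -0.13 ± 0.21 and -0.44 ± 0.21 that passed in neither comparison, and its reads may be shared with EIF5AL1. EIF5A2, the less expressed copy, averaged 3.49 ± 0.791 CPM with shRNA 1, 2.84 ± 0.177 CPM with shRNA 2 and 4.84 ± 1.16 CPM in control (SD, n = 3 each). EIF5A2 fell by 0.77 ± 0.22 on the log2 scale with shRNA 2 (edgeR BH-adjusted p = 0.0118), a call lost without control 1 (edgeR BH-adjusted p = 0.0609, the highest over its alternatives). EIF6, which keeps free large subunits from joining, had 58.3, 70.1 and 36.9 CPM with shRNA 1, 59.2, 51.1 and 46.4 CPM with shRNA 2, and 69.5, 66.9 and 66.6 CPM in control. The shRNA 1 libraries overlapped control, the shRNA 2 libraries were below it, and neither comparison called the gene, at log2 fold changes of -0.30 (edgeR BH-adjusted p = 0.259) and -0.37 (edgeR BH-adjusted p = 0.131). None of the 3 antisense RNAs was called, and since the use of strand in counting is not given, they and their partners may share reads.

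Setting the 2 shRNAs against each other asks where they differed in the initiation factors. Compared with shRNA 1, shRNA 2 gave 9 members lower (17.3%) and 0 higher by edgeR's test, beside 16.5% lower and 15.5% higher over all genes, so the share that was lower was near the background. At an unadjusted p under 0.05, 16 members were lower and 3 higher, and DESeq2 called 10 lower and 3 higher. Upper-quartile scaling, which moved the median of all genes by 0.11 here, called 6 lower and 4 higher. No shares over all genes are set beside these other counts, so no lean of the members is read from them. The 9 were EIF1AD, EIF1AX, EIF2D, EIF2B1, EIF2B3, EIF3B, EIF3D, EIF3J and EIF4E3, and EIF4E3 had the largest difference, at -1.13. EIF2B1 was lower by -0.82 ± 0.09 on the log2 scale (edgeR BH-adjusted p = 7.46e-05), EIF1AX by -0.76 ± 0.18 (edgeR BH-adjusted p = 0.00808) and EIF3D by -0.43 ± 0.10 (edgeR BH-adjusted p = 0.00794). By contrast the difference was 0.01 for EIF2S3 (edgeR BH-adjusted p = 0.972), 0.01 for EIF2B5 (edgeR BH-adjusted p = 0.929) and -0.01 for EIF4EBP2 (edgeR BH-adjusted p = 0.942), and EIF4EBP1 differed by 0.48 ± 0.18 without passing (edgeR BH-adjusted p = 0.0713). The count of lower members ran from 4 without shRNA 2 library 3 to 14 without shRNA 1 library 3, and was 5 without shRNA 1 library 1 or shRNA 2 library 1.

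The summed level of the members, without EIF3CL and the antisense RNAs, was 14115, 12020 and 11518 CPM with shRNA 1, 10902, 11843 and 11665 CPM with shRNA 2, and 15808, 15136 and 13896 CPM in control. Library 1 of shRNA 1 lay above the lowest control library, and the shRNA 2 libraries were all below control. The range of the sums without EIF3C and EIF5AL1 was 11006 to 13455 CPM with shRNA 1, 10898 to 11377 CPM with shRNA 2 and 13036 to 14929 CPM in control.

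Genes that act on these factors were read from lists of named roles. The regulators of eIF2 phosphorylation had 1 of 8 higher (12.5%) and 2 lower (25%) with shRNA 1, near the 20.4% and 19% of all genes. With shRNA 2, 1 was higher (12.5%) and 5 were lower (62.5%), beside 27.5% and 27.4% of all genes. PPP1R15A, also called GADD34, recruits the phosphatase of eIF2 alpha, and was the one higher: it had 52.4, 61.3 and 59.5 CPM with shRNA 1, 89.8, 82.3 and 83.8 CPM with shRNA 2, and 40.1, 46.5 and 42.1 CPM in control, with no overlap. PPP1R15A rose by 0.43 on the log2 scale with shRNA 1 (edgeR BH-adjusted p = 0.00574) and by 0.99 with shRNA 2 (edgeR BH-adjusted p = 1.09e-05). IMPACT and GCN1L1, an inhibitor and an activator of the kinase GCN2, fell with shRNA 2 by 0.66 (edgeR BH-adjusted p = 0.000682) and 0.47 (edgeR BH-adjusted p = 0.00654) on the log2 scale. GCN1L1 also fell with shRNA 1, by 0.42 (edgeR BH-adjusted p = 0.017), while IMPACT was not called there (edgeR BH-adjusted p = 0.324).

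Poly(A)-binding proteins and regulators of eIF4F had 2 of 14 higher (14.3%) and 1 lower (7.1%) with shRNA 1, beside 20.4% and 19% of all genes. With shRNA 2, 4 were higher (28.6%) and 5 lower (35.7%), near the 27.5% and 27.4% of all genes. MKNK1, a kinase that phosphorylates eIF4E, had 77.2, 71.7 and 71.0 CPM with shRNA 1, 74.5, 69.8 and 72.2 CPM with shRNA 2, and 35.6, 38.8 and 37.3 CPM in control, all knockdown libraries being far above control. MKNK1 rose by 0.98 on the log2 scale with shRNA 1 (edgeR BH-adjusted p = 1.43e-05) and by 0.96 with shRNA 2 (edgeR BH-adjusted p = 5.04e-06). MKNK2, on the same list, averaged 55.1 CPM in control and was called in neither comparison. Its log2 fold changes were -0.29 with shRNA 1 (edgeR BH-adjusted p = 0.304) and -0.13 with shRNA 2 (edgeR BH-adjusted p = 0.62). PDCD4, an inhibitor of the eIF4A helicase, had 308, 234 and 291 CPM with shRNA 1, 229.9, 230.0 and 250.2 CPM with shRNA 2, and 164, 143 and 144 CPM in control, again above control throughout. PDCD4 rose with shRNA 1 (edgeR BH-adjusted p = 0.000205) and by 0.65 on the log2 scale with shRNA 2 (edgeR BH-adjusted p = 0.000774). PAIP2B, an inhibitor of poly(A)-binding protein, was low, at 0.326 ± 0.0597 CPM with shRNA 1, 0.467 ± 0.264 CPM with shRNA 2 and 0.161 ± 0.0381 CPM in control (SD, n = 3 each), and rose by 1.57 on the log2 scale with shRNA 2 (edgeR BH-adjusted p = 0.0112).

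The list of the mTORC1 axis had 4 of 12 lower (33.3%) and 1 higher (8.3%) with shRNA 1, beside 19% and 20.4% of all genes. With shRNA 2, 3 were lower and 3 higher (25% each), near the 27.4% and 27.5% of all genes. DDIT4, an inhibitor of mTORC1 also called REDD1, had 61.0, 77.3 and 63.8 CPM with shRNA 1, 86.5, 78.5 and 75.6 CPM with shRNA 2, and 229.6, 252 and 240.2 CPM in control. DDIT4 fell by 1.84 on the log2 scale with shRNA 1 (edgeR BH-adjusted p = 1.85e-06) and by 1.58 with shRNA 2 (edgeR BH-adjusted p = 7.33e-07). MLST8, a subunit of the complex, fell by 1.37 with shRNA 1 (edgeR BH-adjusted p = 0.00382) and by 1.15 with shRNA 2 (edgeR BH-adjusted p = 0.00614). SESN2, an amino acid sensor that restrains mTORC1, fell by 1.25 with shRNA 1 (edgeR BH-adjusted p = 0.00232), and its log2 fold change with shRNA 2 was -0.30 (edgeR BH-adjusted p = 0.296).

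Among 7 genes of scanning, recycling and start codon choice outside the EIF names, 3 fell (42.9%) and 1 rose (14.3%) with shRNA 1, and 4 fell (57.1%) and 1 rose (14.3%) with shRNA 2. Over all genes, 19% fell and 20.4% rose with shRNA 1, and 27.4% fell and 27.5% rose with shRNA 2. ABCE1, which splits ribosomes after termination, fell by 0.50 on the log2 scale with shRNA 1 (edgeR BH-adjusted p = 0.0088) and by 0.79 with shRNA 2 (edgeR BH-adjusted p = 0.000324). BZW1, a mimic of eIF5, had a log2 fold change of 0.35 with shRNA 1 (edgeR BH-adjusted p = 0.192) and fell by 0.80 with shRNA 2 (edgeR BH-adjusted p = 0.00617). BZW2, its paralog, averaged 110.5 ± 16.8 CPM with shRNA 1, 100.6 ± 4.70 CPM with shRNA 2 and 144 ± 10.5 CPM in control (SD, n = 3 each), and fell by 0.39 on the log2 scale with shRNA 1 (edgeR BH-adjusted p = 0.0233) and by 0.52 with shRNA 2 (edgeR BH-adjusted p = 0.00313).

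The elongation, termination and hypusination genes had 6 of 12 tested lower with shRNA 1 (50%) and 8 lower with shRNA 2 (66.7%), beside 19% and 27.4% of all genes called lower. The median log2 fold change of the 12 was -0.58 with shRNA 1 and -0.78 with shRNA 2, beside 0.02 and -0.02 over all genes. DHPS, the enzyme of the first step of eIF5A hypusination, had 28.7, 32.5 and 23.5 CPM with shRNA 1, 21.8, 19.4 and 19.5 CPM with shRNA 2, and 44.6, 41.3 and 46.5 CPM in control, with all knockdown libraries below control. DHPS fell by 0.65 on the log2 scale with shRNA 1 (edgeR BH-adjusted p = 0.00208) and by 1.13 with shRNA 2 (edgeR BH-adjusted p = 2.43e-05). EEF1E1, a scaffold partner of tRNA synthetases, fell by 0.90 with shRNA 1 (edgeR BH-adjusted p = 0.000763) and by 1.13 with shRNA 2 (edgeR BH-adjusted p = 8.4e-05). EEF1A2, a tissue-restricted elongation factor copy, averaged 0.230 ± 0.0823 CPM with shRNA 1, 0.335 ± 0.101 CPM with shRNA 2 and 1.12 ± 0.290 CPM in control (SD, n = 3 each), and its log2 fold changes were -2.26 with shRNA 1 (edgeR BH-adjusted p = 0.000517) and -1.75 with shRNA 2 (edgeR BH-adjusted p = 0.00138).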

How the data were processed

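The whole-number counts per transcript row were deposited by the authors in 1 table with a column for each of 9 libraries. Per the submitters' processing notes, STAR, DESeq and the human build hg19 were used; which did what, with which counting program and use of strand, is not given in the sources used here. RNA entered a stranded kit that selects messenger RNA, per the labels' protocols. The table had 48104 rows for 25679 gene symbols; rows of a gene repeat reads, so the row with the highest total was kept for each symbol, and 2 of 80 date-like rows that could not be restored to a gene were left out. The per-sample columns not used numbered 0.

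The count test was edgeR 4.0.16 under R 4.3.3: filterByExpr (16746 genes left), TMM scaling, the robust quasi-likelihood fit over all 9 libraries with a mean per group and no block, two-sided F-tests, and Benjamini-Hochberg adjustment over all genes tested, with a threshold of 0.05. DESeq2 1.42.0 served as an alternative. The edgeR fit was tested on simulated data, and the DESeq2 fit was not. Standard errors are the log2 fold change over the square root of F. Levels are TMM-scaled CPM, and floors use unscaled totals and cover counting error only. Row lengths were not used, so levels of different genes are not compared. No pair of libraries agreed within sampling noise, the mean chi-square per gene within groups being 18.68 to 269.45.

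The members and the lists were chosen with earlier results of these data known. Genes named in every case are the main factors of each group; added are the 8 other called members with the largest change per comparison, any member called in opposite directions, and the 3 largest called genes of each other list. Names, chromosomes and promoters came from RefSeq tables of GRCh38.p14, which matched 97.7% of rows.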

Additional observations from a re-analysis of the deposited data

Results flagged for a closer look

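EIF4E3, the gene of an atypical cap-binding protein, moved in opposite directions with the 2 YTHDC1 shRNAs. The test of the difference itself, shRNA 2 against shRNA 1, gave a log2 difference of -1.126 ± 0.11 SE (edgeR BH-adjusted p = 4.18e-05), with means of 13.3 ± 0.711 CPM with shRNA 2 and 29.1 ± 2.96 CPM with shRNA 1 (SD, n = 3 each). All 3 libraries of shRNA 2 were below all 3 of shRNA 1, and the call held under each of the 19 alternatives tried.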

How the results depend on the processing

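No member's called fold change reversed under the 19 alternatives (18 for the mean of both shRNAs). Calls were kept under all of them by 12 of 19 members with shRNA 1, 21 of 26 with shRNA 2, 19 of 28 with the mean and 4 of 9 with shRNA 2 against shRNA 1. Members higher with shRNA 1 numbered 6, and 3 with no low-count filter; leaving out 1 library gave 3 to 7. Members higher with shRNA 2 numbered 4, and 9 with upper-quartile scaling and 7 with only the groups compared; leaving out 1 library gave 3 to 7. Members higher with shRNA 2 against shRNA 1 numbered 0 by edgeR, and 4 with upper-quartile scaling, 1 with the ribosomal RNA precursor left out of totals, 3 with DESeq2 and 2 with every row tested; leaving out 1 library gave 0 to 3. Members lower in that comparison numbered 9, and leaving out 1 library gave 4 to 14. The cause was not tested, beyond the fewer libraries or other genes tested that these settings imply. Counts of lower members were 10 to 16 with shRNA 1, 18 to 30 with shRNA 2 and 15 to 25 with the mean under any alternative. Shares over all genes are not set beside these counts, which show only how far the calls of the members moved. The fit with the replicate block gave 6 higher and 13 lower with shRNA 1, 5 and 24 with shRNA 2, and 3 and 10 with shRNA 2 against shRNA 1. Same-numbered libraries deviated together with correlations of -0.088 to 0.568, the highest being that of control 1 with shRNA 1 library 1. Differently numbered libraries had correlations of -0.515 to 0.262. Whether same-numbered libraries shared a culture or batch is not in the labels and was not tested. Without the members that share reads with a copy or an overlapping gene, an alternative chosen after seeing the data, the counts were within 1.5 times those reported. EIF4E1B could not be tested at this depth.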
